A study of Mus musculus with 12 samples.

Results

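The transcripts described here encode 10 plasma-membrane carriers of amino acids, or subunits of them, other than the cationic amino acid transporters (CATs): Slc3a2, Slc7a5, Slc7a8, Slc7a6, Slc7a7, Slc1a5, Slc1a4, Slc38a1, Slc38a2 and Slc6a9. They were taken by name, and each was on 1 row of the 29428 genes of the table. Expression was measured by RNA-seq in STHdhQ7 and STHdhQ111 cells, immortal lines from the striatum of mice whose huntingtin carries 7 or 111 glutamine repeats, each left nontreated (Q7-C and Q111-C) or treated during 24 h (Q7-T and Q111-T) with 100 ng/mL IFNγ plus LPS at 5 μg/mL. There were 3 libraries in each of the 4 groups. Each genotype is represented by a single immortalized line, so that the repeat length and any other difference between the lines cannot be told apart. The study calls the libraries of a group biological replicates, the labels do not say whether they came from separate cultures, and p-values measure the spread between these libraries.

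Amino acids cross the cell membrane by a few carrier systems that share substrates. The heteromeric carriers are built from a heavy chain, encoded by Slc3a2 (4F2hc, also CD98), which takes a light chain of the SLC7 family to the cell surface. LAT1 (Slc7a5) and LAT2 (Slc7a8) exchange large neutral amino acids such as leucine, and y+LAT2 (Slc7a6) and y+LAT1 (Slc7a7) send out cationic amino acids, arginine among them, in exchange for neutral ones and sodium. ASCT2 (Slc1a5) and ASCT1 (Slc1a4) exchange small neutral amino acids including glutamine or serine, SNAT1 (Slc38a1) and SNAT2 (Slc38a2) pump glutamine and alanine inward with sodium, and GlyT1 (Slc6a9) takes up glycine. Several of these genes are known targets of ATF4, the transcription factor of the amino-acid response, which binds a CARE element (C/EBP-ATF response element).

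RefSeq promoter windows of GRCm38.p6 were matched for 7 of the 10 genes, with 14 windows in all, each from 250 bases before to 50 bases after a transcription start. They were searched on both strands for GAS (TTCNNNGAA), the interferon element ISRE, CARE (TGATGNAA), the NF-kB element kappaB and an E-box (CACGTG), which are in 8.3%, 3.44%, 3.97%, 0.411% and 7.15% of all 32851 windows. Of the 7 genes, 2 held any of these letters, Slc1a4 and Slc7a7, and both held only the CARE. The windows of Slc3a2 and Slc7a8, the genes with the largest ratios of mean TPM in treated to nontreated STHdhQ111 cells, held none, which says only that these letters are not in these windows. The windows of these 3 genes are shown to 20 bases after the start, 5′ to 3′ on the minus strand, with the CARE match in capitals. Slc3a2 is at chr19:8713878-8714147, inside the Ensembl gene, Slc7a8 is at chr14:54781867-54782136 and Slc1a4 is at chr11:20332694-20332963. In Slc1a4 the match begins 4 bases before the start.
Slc3a2: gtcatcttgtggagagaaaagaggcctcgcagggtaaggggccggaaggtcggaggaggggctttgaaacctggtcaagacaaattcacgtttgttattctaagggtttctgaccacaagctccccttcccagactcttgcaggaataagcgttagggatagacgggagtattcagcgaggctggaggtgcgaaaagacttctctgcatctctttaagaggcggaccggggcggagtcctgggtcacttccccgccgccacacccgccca
Slc7a8: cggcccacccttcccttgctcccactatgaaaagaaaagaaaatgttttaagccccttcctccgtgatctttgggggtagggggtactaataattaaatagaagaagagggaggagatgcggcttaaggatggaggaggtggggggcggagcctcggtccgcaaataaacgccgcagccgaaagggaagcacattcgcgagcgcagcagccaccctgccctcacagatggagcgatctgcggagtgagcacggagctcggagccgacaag
Slc1a4: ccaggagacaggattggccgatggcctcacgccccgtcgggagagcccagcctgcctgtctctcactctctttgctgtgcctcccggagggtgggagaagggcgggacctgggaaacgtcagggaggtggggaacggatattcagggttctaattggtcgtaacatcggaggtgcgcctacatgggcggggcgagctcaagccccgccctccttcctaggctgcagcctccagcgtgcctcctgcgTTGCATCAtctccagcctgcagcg

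The estimated counts deposited for a library summed to between 57505990 and 96417834. Their unit is not given in the sources used here. Among low counts, multiples of 4 outnumbered the neighbouring even numbers by a factor of 1.28 to 1.72, and from this alone 1 read pair was taken to be worth about 4 counts. A library would then hold between 14376498 and 24104458 read pairs, and the floor and the counting interval given for Slc7a8 rest on this. The libraries Q7-C replicate 1 and Q7-T replicate 2 stood apart. Their median TPM ratio to the other libraries of their group was 0.711 and 0.588 over all genes. In each, 8 of the 10 carriers were below both other libraries, near the 66.9% and 70.0% of all genes that were. Results that rest on them are therefore also given with both left out, a choice made after the data were seen. Leaving both out raised the number of all genes called, higher and lower, in every comparison. In Q111-C vs. Q7-C, for example, it went from 1796 and 1868 to 2670 and 2891. Q111-T replicate 2 also differed from the others of its group, though less than these, and was left out only on its own. Its chi-square per degree of freedom on the estimated counts was 196 and 173, against 35.0 between replicates 1 and 3. It was the lowest Q111-T library in Slc7a5, Slc7a6, Slc1a4, Slc1a5, Slc38a1, Slc38a2 and Slc6a9. The treatment was visible in both lines, since 4 of 4 interferon-response genes, among them Gbp2, rose in Q7-T vs. Q7-C and in Q111-T vs. Q111-C.

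The labelled striatal origin was checked against cell type markers. The neuronal genes Rbfox3 and Nefl and the striatal genes Drd1, Drd2 and Tac1 have no row in the table used here. Of 10 neuronal markers 3 were at a mean of 1 TPM or more in each group, and their summed level was between 94.6 and 104 TPM in nontreated and 132 and 168 TPM in treated STHdhQ7 cells, against 9.91 to 13.8 and 31.1 to 35.0 TPM in STHdhQ111 cells. Of 10 markers of striatal projection neurons at most 2 reached 1 TPM, with a sum of at most 6.92 TPM in any library. Of 10 microglial or macrophage markers 2 reached 1 TPM, and Ptprc was at 0 in all libraries of Q7-T, Q111-C and Q111-T. This list summed to between 17.9 and 20.6 TPM in nontreated and 11.9 and 18.2 TPM in treated STHdhQ7 cells, against 31.9 to 37.0 and 46.0 to 62.5 TPM in STHdhQ111 cells. The astrocyte list summed to between 22.6 and 41.1 TPM in Q7-C and between 91.3 and 113 in Q111-C. Of 10 mesenchymal markers 8 reached 1 TPM, and their sum was 4353 to 5152 TPM in nontreated and 3348 to 3900 TPM in treated STHdhQ7 cells, against 4324 to 4546 and 1799 to 2131 TPM in STHdhQ111 cells. These lists moved with the cell line or the treatment, and their part in the results below was not tested. In such bulk libraries fewer cells of a type and less RNA per cell cannot be told apart.

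Between the nontreated lines, 6 of the 9 carrier genes that passed the filter differed in level. Slc38a1, Slc3a2, Slc1a5, Slc7a5 and Slc6a9 were lower in STHdhQ111 cells and Slc7a8 was higher. A gene was tested where it reached 0.5 TPM in at least 3 libraries, and was called at a Benjamini-Hochberg adjusted p under 0.05 over all 16127 genes tested by edgeR's quasi-likelihood test. Among all tested genes 11.1% were called higher and 11.6% lower in Q111-C vs. Q7-C. The median log2 fold change of the 9 genes was -0.69, beside -0.02 over all genes, and 4 of the 6 also changed by at least 2-fold. Of all tested genes 1796 were called higher and 1868 lower, and 2456 of these called genes also changed by at least 2-fold, a like share. After treatment, 5 of the 9 differed, with Slc7a8 higher and Slc38a1, Slc1a5, Slc3a2 and Slc7a5 lower in Q111-T, against 19.8% higher and 18.7% lower of all genes. The median of the 9 was then -0.33. Limma on log2(TPM + 0.5) called 2 between treated lines, 1 higher and 1 lower, and 3 were called in a fit to the libraries compared or without Q111-T replicate 3. With both libraries that stood apart left out 7 were called, 1 higher and 6 lower, where 4223 and 3491 of all genes were.

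The treatment comparisons called 1 and 2 of the 9. In Q7-T vs. Q7-C, where 3.61% of all genes rose and 1.74% fell, Slc7a5 alone of the 9 was called, and it fell. In Q111-T vs. Q111-C, where 11.3% rose and 7.33% fell, Slc3a2 and Slc6a9 rose and none was called lower. The count in STHdhQ111 cells was 4 by DESeq2, 5 with both libraries that stood apart left out and 6 in a fit to the libraries compared, but 1 without the filter or with the replicate numbers as a block, and 1 to 4 when 1 library was left out. The calls over all genes rose too, from 1828 higher and 1182 lower to 2241 and 1683 by DESeq2. They were 3235 and 2680 with both libraries left out, and 3046 and 2428 in the fit to the libraries compared. The medians of the 9 genes were -0.09 and 0.11. The interaction, which asks whether the treatment acted differently in the lines, called 3.94% of all genes as positive and 1.75% as negative, and 0 of the 9 carriers by edgeR. At an unadjusted p under 0.05 it held 2, Slc3a2 and Slc6a9, while DESeq2 called 1 (Slc6a9) and limma on log2(TPM + 0.5) called Slc3a2. That fit also passed Slc7a8, but the gene was not detected in Q7-C and no size can be given. The comparisons share their libraries by pairs, so that Q111-C, for example, enters both the difference between nontreated lines and the effect of treatment in STHdhQ111 cells.

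**Figure D1:**
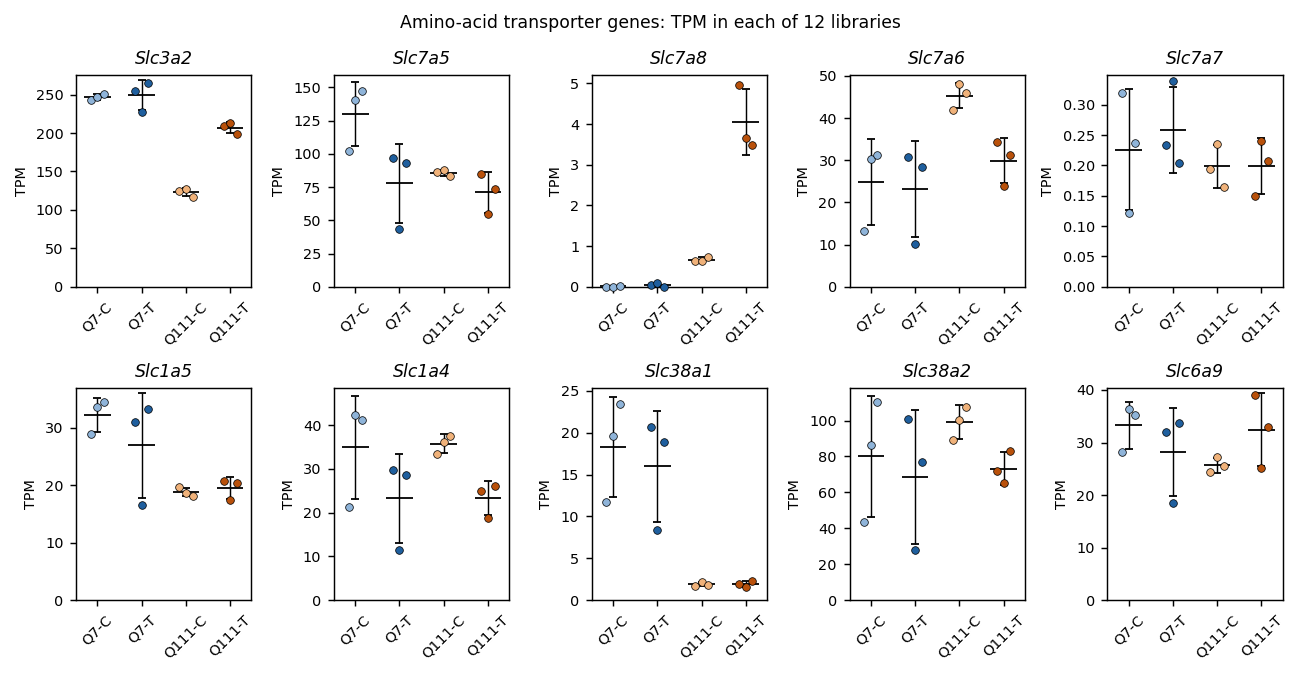
TPM of the 10 carrier genes (1 panel a gene, each from 0 on its own axis) in the 12 libraries, with points for libraries, lines for means and bars for SD over 3 libraries. Slc3a2 lies near 123 TPM in Q111-C against 247 in Q7-C, Slc38a1 near 1.89 against 18.3, and Slc7a8 at up to 0.0995 in STHdhQ7 cells, with 3.49 to 4.97 TPM in Q111-T.

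The heavy chain Slc3a2 (chromosome 19, 8706882 to 8723369, minus strand, GRCm38) was the most abundant of the carriers per transcript length in all groups. Its level was 244, 246 and 251 TPM in the libraries of Q7-C and 254, 227 and 265 TPM in those of Q7-T. It was 125, 127 and 117 TPM in Q111-C and 209, 213 and 199 TPM in Q111-T. The nontreated STHdhQ111 libraries were thus all under all of the others, and the Q111-T libraries lay between them and both STHdhQ7 groups without overlap. The mean was 123 ± 5.55 TPM in Q111-C and 247 ± 3.66 TPM in Q7-C (SD, n = 3), a ratio of 0.498 ± 0.0237. By edgeR the log2 fold change was -1.34 (SE 0.191, adjusted p = 3.4e-04), and the gene stayed called under 24 of 24 alternatives. Treatment raised it in STHdhQ111 cells to 207 ± 7.30 TPM, a ratio of 1.68 ± 0.0964 and a log2 fold change of 0.86 (SE 0.189, edgeR adjusted p = 0.00756), also called under 24 of 24 alternatives.

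In STHdhQ7 cells the level after treatment was 249 ± 19.5 TPM (SD, n = 3), and the log2 fold change of Slc3a2 was 0.21 (edgeR adjusted p = 0.690). The difference between these treatment effects was 0.65 on the log2 scale and did not pass the test (edgeR, adjusted p = 0.198). It passed under 5 of 23 alternatives, with an adjusted p of 0.0142 by limma on log2(TPM + 0.5), 0.0356 without Q7-T replicate 2 and 0.0141 without both libraries that stood apart. In Q111-T vs. Q7-T the log2 fold change was -0.69 (SE 0.188, edgeR adjusted p = 0.0136), and the TPM ranges did not overlap. That call was lost under 6 of 24 alternatives, among them limma on log2(TPM + 0.5), where Slc3a2 was at -0.26 (adjusted p = 0.0758), and leaving out Q111-T replicate 1 (adjusted p = 0.0551) or replicate 3 (0.0629).

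Slc7a5, the light chain of LAT1 (chromosome 8, 121881150 to 121907694, minus strand), was the most abundant light chain. Its levels were 102, 141 and 147 TPM in Q7-C and 96.6, 43.6 and 92.9 TPM in Q7-T. They were 86.0, 87.9 and 83.0 TPM in Q111-C and 84.9, 54.8 and 73.5 TPM in Q111-T. All libraries of Q7-C lay above those of the other groups, which overlapped one another. Between nontreated lines its log2 fold change was -0.91 (SE 0.147, edgeR adjusted p = 8.36e-04). On the TPM scale, where the median of all genes is itself shifted by 0.27, the ratio was 0.659 ± 0.124 and limma on log2(TPM + 0.5) gave an adjusted p of 0.182.

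Treatment lowered Slc7a5 in STHdhQ7 cells by a log2 fold change of -0.61 (SE 0.146, edgeR adjusted p = 0.0338). The call did not hold when Q7-C replicate 1 was left out (adjusted p = 0.0579), nor without Q7-C replicate 2 (0.106), Q7-C replicate 3 (0.0996) or Q7-T replicate 3 (0.0512), nor when any Q111-C library or Q111-T replicate 3 was left out of the shared fit (0.0560 to 0.0628). With Q7-C replicate 1 and Q7-T replicate 2 both left out it was kept. In STHdhQ111 cells the log2 fold change was -0.18 (edgeR adjusted p = 0.470), and the difference between the lines, 0.42, did not pass (adjusted p = 0.286). In Q111-T vs. Q7-T Slc7a5 had a log2 fold change of -0.48 (edgeR adjusted p = 0.0219), a call lost under 9 of 24 alternatives. By limma on log2(TPM + 0.5) it was -0.07 (adjusted p = 0.874), a fit to the libraries compared gave an adjusted p of 0.125, and edgeR gave an adjusted p between 0.0586 and 0.0804 without Q7-T replicate 1 or 3 or Q111-T replicate 2 or 3.

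Slc7a8, the light chain of LAT2 (chromosome 14, 54722209 to 54781946, minus strand), was detected only in STHdhQ111 cells beyond a few reads. The libraries of Q7-C held 0, 0 and 6 estimated counts and those of Q7-T 8, 20 and 0. Those of Q111-C held 98, 111 and 142, and those of Q111-T held 898, 607 and 485. In TPM this was 0.63, 0.64 and 0.74 in Q111-C and 4.97, 3.67 and 3.49 in Q111-T, with no overlap between these groups or with STHdhQ7 cells. Against a floor of 12 estimated counts (3 read pairs) in a library, Q111-C was at least 9.75-fold higher than Q7-C (edgeR adjusted p = 0.00448), a call lost under 1 of 24 alternatives, limma on median-centred log2(TPM + 0.5), with an adjusted p of 0.0545. Q111-T was 78.4-fold higher than Q7-T in the share of all counts (exact binomial 95% interval 37.8 to 196, for counting error in read pairs only), and edgeR gave an adjusted p of 0.0017, called under 24 of 24 alternatives. Of the 28 counts in Q7-T 20 were in its replicate 2, which stood apart, and without it the gene was not detected in Q7-T and Q111-T was at least 63.2-fold higher.

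Within STHdhQ111 cells the mean TPM of Slc7a8 with treatment was 6.06 ± 1.34 times that without. The edgeR fit over 12 libraries gave a log2 fold change of 2.69 (SE 0.910) with an adjusted p of 0.0626, which misses the threshold. A fit to the 6 libraries compared gave 3.7e-05, limma on log2(TPM + 0.5) gave 9.4e-06, and 10 of 24 alternatives called the gene, among them leaving out Q7-T replicate 2 (0.0129) or replicate 3 (0.0108). Whether treatment acted differently in STHdhQ7 cells cannot be estimated from counts, as the gene was not detected in Q7-C. Slc7a5 exceeded Slc7a8 in TPM by 129 ± 14.7 times in nontreated and by 17.7 ± 3.12 times in treated STHdhQ111 cells (SD, n = 3), so LAT1 transcripts remained the more abundant.

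Slc7a6, the light chain of y+LAT2 (chromosome 8, 106168857 to 106198706, plus strand), was at 13.1, 30.2 and 31.2 TPM in Q7-C and 30.8, 10.0 and 28.5 TPM in Q7-T. It was at 42.02, 48.0 and 46.1 TPM in Q111-C and at 34.4, 24.0 and 31.2 TPM in Q111-T. The nontreated STHdhQ111 libraries were above all others, and the low libraries of STHdhQ7 cells were those that stood apart over all genes. The log2 fold change of Slc7a6 in Q111-C vs. Q7-C was 0.61 (edgeR adjusted p = 0.108) and 0.39 with both of these libraries left out (adjusted p = 0.0116). It was also called without Q7-T replicate 2 alone (0.0264). In Q111-T vs. Q111-C it was -0.51 (edgeR adjusted p = 0.195), which became 0.00136 with both left out and 0.0062 in a fit to the 6 libraries compared. Slc7a7, the y+LAT1 light chain (chromosome 14, 54369442 to 54417780, minus strand), was at 0.12 to 0.34 TPM in all 12 libraries, under the filter, and the groups overlapped in each comparison.

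The light chains were also set against their heavy chain within each library, as the summed TPM of Slc7a5, Slc7a6, Slc7a7, Slc7a8 and the cystine carrier Slc7a11 over that of Slc3a2. The ratio was 0.493, 0.723 and 0.743 in Q7-C and 0.540, 0.259 and 0.490 in Q7-T. It was 1.07, 1.12 and 1.16 in Q111-C and 0.684, 0.447 and 0.644 in Q111-T. Transcripts of light chains thus exceeded those of the heavy chain only in nontreated STHdhQ111 cells, where all 3 libraries were above all others. Q111-C exceeded Q7-C by 0.80 in the log2 ratio, which fell by 0.94 with treatment in STHdhQ111 cells. Each of these had an exact two-sided permutation p of 0.1, the smallest that 3 libraries against 3 can give, and an adjusted p of 0.189 over 17 such ratio tests.

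**Figure D2:**
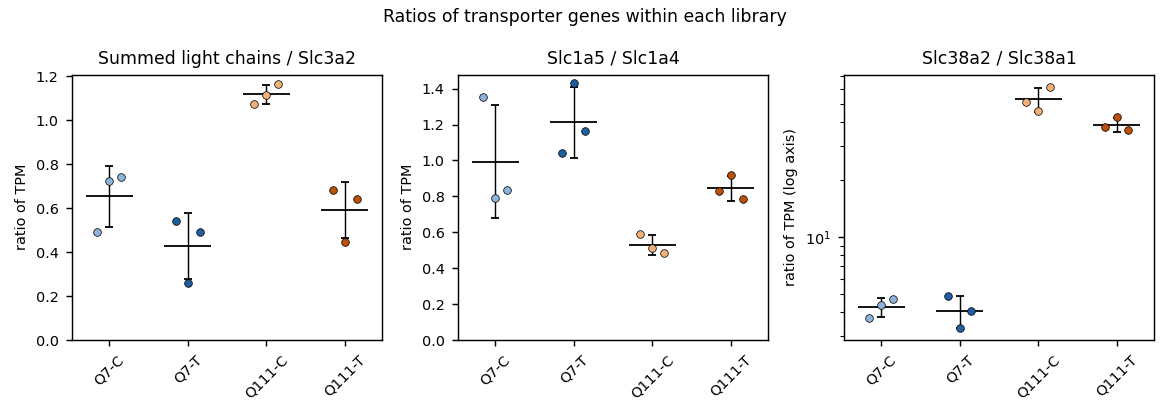
Ratios of TPM within each library (points), with the mean and SD of 3 libraries, for the summed light chains to Slc3a2, Slc1a5 to Slc1a4, and Slc38a2 to Slc38a1 on a log axis. The first is highest in Q111-C at 1.12, the second lowest there at 0.529, and the third lies near 4 in STHdhQ7 cells and at 36.4 to 61.7 in STHdhQ111 cells.

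Slc1a5, which encodes ASCT2 (chromosome 7, 16781340 to 16798274, plus strand), was at 28.9, 33.5 and 34.4 TPM in Q7-C and 30.9, 16.5 and 33.2 TPM in Q7-T. It was at 19.6, 18.6 and 18.2 TPM in Q111-C and 20.8, 17.3 and 20.5 TPM in Q111-T. Both STHdhQ111 groups lay under Q7-C, while Q7-T overlapped them through its replicate 2. The log2 fold change was -1.10 between nontreated lines (SE 0.133, edgeR adjusted p = 1.04e-04, called under 24 of 24 alternatives) and -0.82 between treated lines (edgeR adjusted p = 5.87e-04, lost in the 3 limma fits on uncentred TPM, with an adjusted p of 0.205 to 0.21). Neither treatment comparison called it, with log2 fold changes of -0.13 and 0.15.

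Slc1a4, which encodes ASCT1 (chromosome 11, 20302180 to 20332713, minus strand) and carries the CARE match printed above, was at 21.3, 42.3 and 41.2 TPM in Q7-C and 29.7, 11.5 and 28.6 TPM in Q7-T. It was at 33.3, 36.2 and 37.6 TPM in Q111-C and 25.0, 18.9 and 26.1 TPM in Q111-T. The groups set against each other overlapped except Q111-T and Q111-C, where the treated libraries were all lower, with a ratio of 0.653 ± 0.116. That difference had a log2 fold change of -0.52 (edgeR adjusted p = 0.0855) and was called under 6 of 24 alternatives, such as without Q7-T replicate 2 (0.0199) or Q7-C replicate 1 (0.0485). Without both libraries that stood apart, Slc1a4 was also called lower in Q111-C vs. Q7-C (-0.40, adjusted p = 0.00843), in Q111-T vs. Q7-T (-0.47, adjusted p = 0.00221) and in Q7-T vs. Q7-C (-0.44, adjusted p = 0.0289), all by edgeR. The ratio of Slc1a5 to Slc1a4 was 0.994 ± 0.313 and 1.21 ± 0.199 in nontreated and treated STHdhQ7 cells, against 0.529 ± 0.0542 and 0.845 ± 0.0691 in STHdhQ111 cells (SD, n = 3).

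Slc38a1, which encodes SNAT1 (chromosome 15, 96571418 to 96642913, minus strand), had the largest fold difference between the lines among the tested carriers other than Slc7a8. Its levels were 11.7, 19.6 and 23.4 TPM in Q7-C and 20.7, 8.39 and 18.9 TPM in Q7-T. They were 1.74, 2.18 and 1.75 TPM in Q111-C and 1.91, 1.53 and 2.28 TPM in Q111-T. No STHdhQ111 library came near any STHdhQ7 library. The mean in Q7-C was 9.67 ± 3.41 times that in Q111-C, with a log2 fold change of -3.55 (SE 0.206, edgeR adjusted p = 4.6e-07). After treatment it was -3.40 (SE 0.204, edgeR adjusted p = 6e-07), and both were called under 24 of 24 alternatives. Treatment gave log2 fold changes of -0.04 in STHdhQ7 and 0.11 in STHdhQ111 cells, with edgeR adjusted p of 0.954 and 0.790.

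Slc38a2, the SNAT2 gene on the same strand (chromosome 15, 96687392 to 96699730), did not pass the test in any comparison of the 12 libraries. Its levels were 43.7, 86.1 and 111 TPM in Q7-C and 101.2, 27.9 and 77.0 TPM in Q7-T. They were 89.3, 100.3 and 108 TPM in Q111-C and 71.8, 65.0 and 83.1 TPM in Q111-T. Q7-C spanned the whole range of Q111-C, and the log2 fold change between these was 0.04 (edgeR adjusted p = 0.935). The treated STHdhQ111 libraries were all under the nontreated ones, at a log2 fold change of -0.34 (edgeR adjusted p = 0.465). Without both libraries that stood apart, Slc38a2 was called lower in Q111-T vs. Q7-T (-0.42, adjusted p = 0.0218). Within a library Slc38a2 exceeded Slc38a1 by 4.28 ± 0.505 times and 4.10 ± 0.782 times in nontreated and treated STHdhQ7 cells, and by 53.0 ± 7.93 and 38.8 ± 3.21 times in STHdhQ111 cells (SD, n = 3). This ratio did not overlap between the lines in either condition and varied less within a group than Slc38a2 itself did in STHdhQ7 cells.

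Slc6a9, which encodes GlyT1 (chromosome 4, 117834506 to 117875198, plus strand), was at 28.2, 36.3 and 35.3 TPM in Q7-C and 32.1, 18.5 and 33.8 TPM in Q7-T. It was at 24.3, 27.2 and 25.5 TPM in Q111-C and 39.1, 25.2 and 32.9 TPM in Q111-T. The nontreated STHdhQ111 libraries lay under Q7-C, whereas the treated groups overlapped. Slc6a9 had a log2 fold change of -0.69 between nontreated lines (SE 0.132, edgeR adjusted p = 0.00265), which the 3 limma fits on uncentred TPM did not call (adjusted p 0.318 to 0.329). In Q111-T vs. Q111-C it was 0.42 (SE 0.132, edgeR adjusted p = 0.0442), with overlapping TPM. That call was lost under 15 of 24 alternatives, among them leaving out any Q111-C library (0.119 to 0.170), Q111-T replicate 1 (0.206) or 3 (0.102), Q7-C replicate 2 or 3, or Q7-T replicate 1 or 3 (0.0516 to 0.0833). Genes on the opposite strand overlap Slc6a9, Slc7a5 and Slc7a7, and whether the counting used strand is not given in the sources used here.

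**Figure D3:**
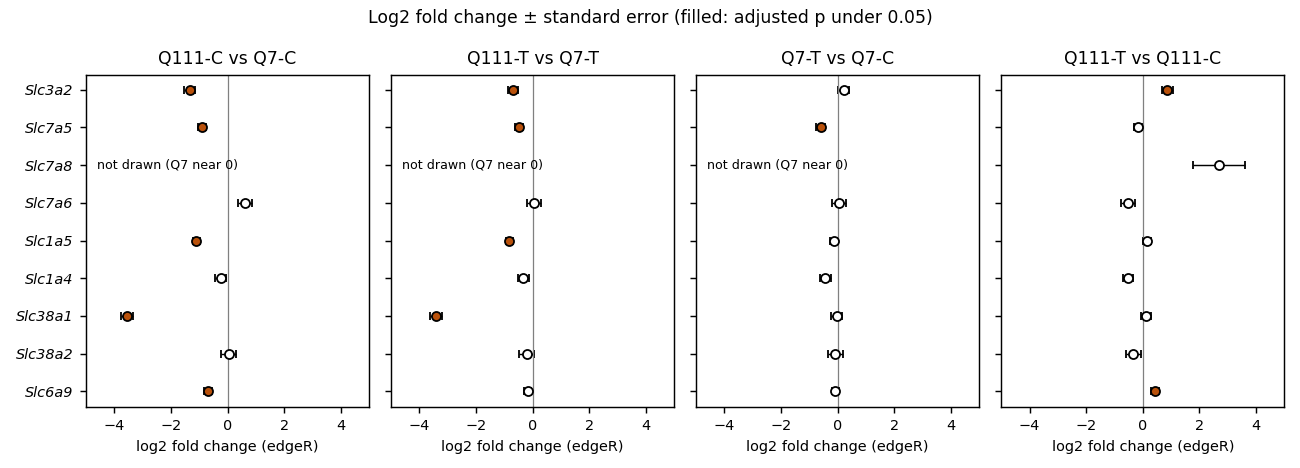
Log2 fold change with its standard error (edgeR) of 9 carrier genes in 4 comparisons, filled where the adjusted p was under 0.05. Slc7a8 is drawn only within STHdhQ111 cells (2.69, open), and Slc3a2 is the gene that is filled to the left in both line comparisons (-1.34 and -0.69) and to the right in Q111-T vs. Q111-C (0.86).

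The order of the carriers by TPM, a measure per transcript length, differed between lines. In Q7-C it ran Slc3a2, Slc7a5, Slc38a2, Slc1a4, Slc6a9, Slc1a5, Slc7a6, Slc38a1, Slc7a7 and Slc7a8. Neighbours overlapped between Slc7a5 and Slc38a2 and along the run from Slc1a4 to Slc38a1. In Q111-C it ran Slc3a2, Slc38a2, Slc7a5, Slc7a6, Slc1a4, Slc6a9, Slc1a5, Slc38a1, Slc7a8 and Slc7a7, and no neighbours overlapped. In Q111-T Slc7a8 stood above Slc38a1 without overlap. Among all genes tested, those whose pattern was most like that of Slc3a2 were Slc25a33 (Pearson r = 0.987 over 12 libraries), 2700099C18Rik (0.979) and Gsta4 (0.978). Those most like Slc7a5 were Nuak1 (0.984), Sh3rf3 (0.978) and Mgat3 (0.973). These values describe the same 12 libraries, which fall into groups, and carry no test.

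The amino-acid response genes are a list of 16 that holds ATF4, its partners, its known targets and Eif2ak4, which encodes a kinase upstream of it. They were mostly lower in nontreated STHdhQ111 cells. Of the 16, all tested, 12 were lower and 0 higher in Q111-C vs. Q7-C, where 11.6% and 11.1% of all genes were, and the median log2 fold change was -0.81. The range of lower calls over the alternatives was 6 to 14. The extremes were Stc2, a secreted stress glycoprotein, at 0.36 against 2.61 TPM (log2 fold change -3.16, edgeR adjusted p = 2.66e-05), and the lipoprotein receptor Vldlr at 7.94 against 33.5 TPM (-2.34, edgeR adjusted p = 1.03e-05). In Q111-T vs. Q7-T 10 were lower and 1 was higher, where 18.7% and 19.8% of all genes were. The median was -0.71, and the lower calls numbered 5 to 11 over the alternatives, with 5 by limma on log2(TPM + 0.5). The one higher was Sesn2, a leucine sensor upstream of mTORC1, at 161 against 35.8 TPM (1.81, edgeR adjusted p = 4.38e-06), and the lowest were Stc2 (-2.07) and the stress regulator Nupr1 (-1.87).

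In STHdhQ7 cells, where treatment called 3.61% of all genes higher and 1.74% lower, it called 0 of the 16 by edgeR, by DESeq2 and by limma, and 1 with both of the libraries that stood apart left out, with a median of 0.08. At an unadjusted p under 0.05 edgeR held 1. In STHdhQ111 cells, where 11.3% of all genes rose and 7.33% fell, 5 rose and 0 fell, with a median of 0.43, and the largest changes were in Cebpb (2.98, edgeR adjusted p = 0.00546) and Sesn2 (2.49, edgeR adjusted p = 6.65e-07). With both of those libraries left out 10 rose and 3 fell, where 3235 and 2680 of the 16127 genes tested did. The interaction was positive for 3 and negative for 0, against 3.94% and 1.75% of all genes, with 1 to 6 positive and 0 to 1 negative over the alternatives. This list was put together with earlier results of these data known.

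**Figure D4:**
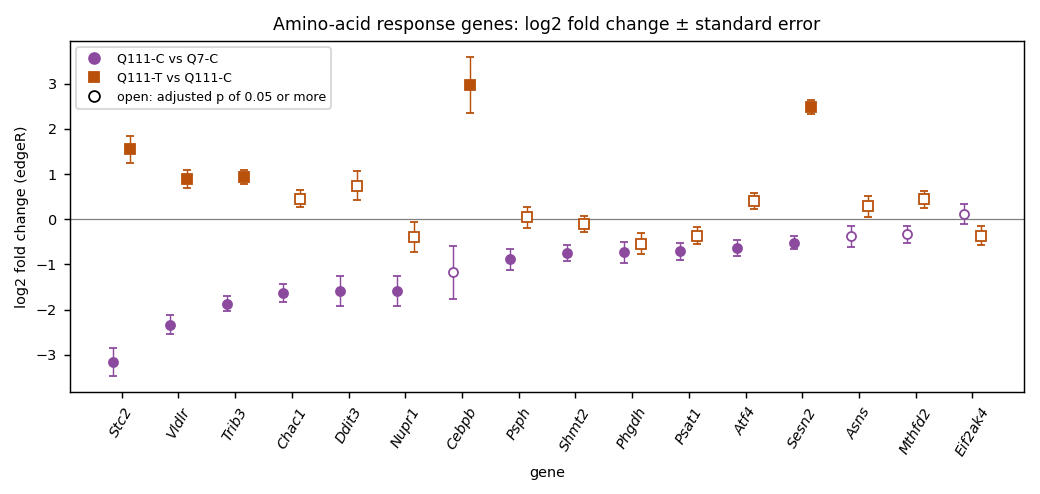
Log2 fold change with its standard error (edgeR) of the 16 amino-acid response genes between nontreated lines (circles) and with treatment in STHdhQ111 cells (squares), filled where the adjusted p was under 0.05. The circles are filled below 0 for 12 genes and the squares above 0 for 5, with Stc2 lowest at -3.16 and Cebpb highest at 2.98.

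Values of other carriers follow, from lists put together in the same way. Of the 4 CATs, Slc7a2, a carrier of arginine, rose with treatment in STHdhQ111 cells from 5.91 to 74.7 TPM (log2 fold change 3.75, edgeR adjusted p = 1.42e-06), and the other 3 were not called there, where 11.3% of all genes rose. With both libraries that stood apart left out 2 CATs were called higher. Between nontreated lines Slc7a2 was higher (1.21) and 3 CATs were lower, among them Slc7a1 (-0.87) and Slc7a3 (-0.84), where 11.1% and 11.6% of all genes were, with 1 to 3 lower over the alternatives and 1 by limma on log2(TPM + 0.5). Of 9 further SLC7, SLC3 and L-type genes 4 were tested. The cystine-glutamate exchanger Slc7a11, which also pairs with Slc3a2, was lower in nontreated STHdhQ111 cells than in nontreated STHdhQ7 cells (-0.54, edgeR adjusted p = 0.0230) and rose with treatment in STHdhQ111 cells from 5.50 to 17.1 TPM (1.72, edgeR adjusted p = 1.29e-05). Between nontreated lines 0 to 2 genes of its list were called lower over the alternatives, with 0 by limma on log2(TPM + 0.5). Between treated lines Slc7a11 (0.79) and the aromatic amino-acid carrier Slc16a10 (0.53) were higher, by edgeR.

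Of 9 other SLC38 genes 6 were tested, and 2 were higher and 1 lower between nontreated lines, where 11.1% and 11.6% of all genes were, with 0 to 2 and 0 to 1 over the alternatives. Slc38a4 was at 2.30 against 0.20 TPM (3.22, edgeR adjusted p = 0.0331), Slc38a10 was at 0.50 and Slc38a6 at -0.59 in log2 fold change. Treatment in STHdhQ111 cells raised Slc38a3, the SNAT3 gene, from 0.14 to 1.14 TPM (3.11, edgeR adjusted p = 0.0143) and lowered Slc38a7 (-0.85) and Slc38a10 (-0.69), where 11.3% of all genes rose and 7.33% fell, with 0 to 1 higher and 1 to 3 lower over the alternatives. In Q111-T vs. Q7-T 0 were called higher and 2 lower by edgeR, Slc38a7 (-1.09) and Slc38a6 (-0.50), where 19.8% and 18.7% of all genes were. Over the alternatives 0 to 2 were called higher there and 1 to 2 lower, with 2 and 2 when both libraries that stood apart were left out. Of 14 SLC6 and SLC36 genes 6 were tested. Between nontreated lines the taurine carrier Slc6a6 was lower (-0.92) and Slc6a17 higher (0.83), between treated lines Slc6a17 (1.57) and Slc36a4 (1.22) were higher, and with treatment in STHdhQ111 cells Slc6a19 rose from 0.09 to 1.83 TPM (4.48, edgeR adjusted p = 0.0143). Over the alternatives this list had 0 to 2 higher and 0 to 1 lower between nontreated lines, and 0 to 2 higher and 0 to 2 lower with treatment in STHdhQ111 cells. Of 5 SLC1 glutamate carriers only Slc1a3, known as GLAST and typical of astrocytes, passed the filter. It was at 9.86 TPM in Q111-C against 0.90 in Q7-C (3.18, edgeR adjusted p = 1.08e-05) and fell to 2.75 TPM with treatment (-1.75, edgeR adjusted p = 7.67e-04).

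The mTORC1 pathway reads leucine and arginine through the Sestrins, CASTOR1 and the Rag GTPases. Sesn2 was kept in the amino-acid response list, where it rose with treatment in STHdhQ111 cells (2.49) and was higher between treated lines (1.81). Between nontreated lines it was lower in STHdhQ111 cells (-0.52, edgeR adjusted p = 0.0206). Of 20 other tested genes 4 were higher and 2 lower in Q111-C vs. Q7-C, where 11.1% and 11.6% of all genes were. The arginine sensor Castor1 was at 12.04 against 2.87 TPM (1.70, edgeR adjusted p = 0.00169) and the Sestrin Sesn3 at 11.7 against 2.81 TPM (1.80, edgeR adjusted p = 3.26e-04), whereas the Rag GTPase genes Rragb (-2.04) and Rragd (-1.89) were lower. Between treated lines 3 were higher and 3 lower, where 19.8% and 18.7% of all genes were, with 2 to 5 higher and 0 to 4 lower over the alternatives. They were led by Castor1 (2.65) and Sesn3 (1.57) and by Rragd (-1.46) and Rragb (-1.41). With treatment in STHdhQ111 cells Rraga alone of these 20 was called, and it fell (-0.52, edgeR adjusted p = 0.0210), while 2 were higher and 4 lower with both libraries that stood apart left out.

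Of 16 tested genes that use the carried amino acids, 1 was higher and 5 lower in Q111-C vs. Q7-C, where 11.1% and 11.6% of all genes were, with 1 to 7 lower over the alternatives. Glutamine synthetase, Glul, was at 29.4 against 4.83 TPM (2.33, edgeR adjusted p = 7.92e-05), and the glutaminase Gls2 (-1.26) and the glutathione synthesis gene Gclm (-1.01) were lower. With treatment in STHdhQ111 cells 5 rose and 0 fell, where 11.3% and 7.33% of all genes did, with 3 to 6 rising over the alternatives and Gclm going from 15.9 to 54.7 TPM (1.90, edgeR adjusted p = 1.03e-05) and Gls2 from 2.71 to 6.50 TPM (1.35). In STHdhQ7 cells, where 3.61% of all genes rose and 1.74% fell, 3 rose and 0 fell, among them the tryptophanyl-tRNA synthetase Wars, an interferon-induced gene, from 70.8 to 178 TPM (1.497, edgeR adjusted p = 3.07e-05), and the tryptophan-degrading Ido2 (4.31). Between treated lines 4 were higher and 4 lower, where 19.8% and 18.7% of all genes were, with 2 to 5 and 1 to 6 over the alternatives. By log2 fold change Glul was at 1.29, Gclc at 0.89, Wars at -1.88 and Ido2 at -1.59.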

How the data were processed

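RNA-seq was made from 12 libraries of STHdhQ7 and STHdhQ111 cells (poly(A) RNA, stranded, paired ends). The authors trimmed reads with Cutadapt, aligned them by HISAT2 (GRCm38) and, after merging transcripts, used StringTie and Ballgown for expression. They deposited estimated counts as whole numbers, without normalization, and TPM, which the authors scaled for length and library total. The numbers of the labels gave group and replicate, and every column was mapped.

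The members and gene lists were chosen with earlier results of these data known. The 16127 genes reaching 0.5 TPM in 3 or more libraries were fitted by edgeR 4.0.16 (R 4.3.3) on the rounded counts with TMM scaling, 1 mean a group over 12 libraries and Benjamini-Hochberg adjustment. SEs come from the F statistic. Ratios were compared by exact two-sided permutation tests, and ratios of mean TPM carry the propagated SD. Alternatives used limma 3.58.1 on log2(TPM + 0.5), DESeq2 1.42.0, other filters and left-out libraries. A gene at or under 12 counts in every library of a group was taken as not detected there. The reads carry no molecular identifiers, so intervals and floors cover counting error only. All 10 members are named, and from each list at most the 2 largest and 2 smallest log2 fold changes a comparison among called genes with a mean of at least 1 TPM in a group. The procedure was tested on simulated data. No pair of replicates agreed within counting noise (chi-square per degree of freedom at least 18.6 on the estimated counts). On read pairs, taken as about 4 counts each, this value would be smaller by that factor. Promoters are from RefSeq (GRCm38.p6), and gene positions are those of the table.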

Additional observations from a re-analysis of the deposited data

How the results depend on the processing

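The number of the 10 carriers called in Q111-C vs. Q7-C (6) lay between 4 and 8 over 24 alternatives. In Q111-T vs. Q7-T (5) it was 2 by limma on log2 TPM with a pseudocount of 0.5, 0.1 or 1, 3 with only the libraries compared, and 3 to 6 when 1 library was left out, with 3 without Q111-T replicate 3. It was 7 there with Q7-C replicate 1 and Q7-T replicate 2 left out together. In Q7-T vs. Q7-C (1, Slc7a5) it was 0 without the filter, by limma with each of the 3 pseudocounts and with only the libraries compared, 0 to 1 when 1 library was left out, and 2 with Q7-C replicate 1 and Q7-T replicate 2 left out together. In Q111-T vs. Q111-C (2) it was 4 by DESeq2, 1 without the filter, 6 with only the libraries compared, 1 to 4 when 1 library was left out, and 5 with both libraries left out. In the interaction (0) it was 1 by DESeq2, 2 by limma with each pseudocount (Slc3a2 and Slc7a8, the latter not detected in Q7-C), 1 by limma on median-centred values (Slc7a8), 0 to 1 when 1 library was left out, and 2 with both left out (Slc3a2 and Slc7a6). The calls over all genes moved with the setting as well. In Q111-T vs. Q111-C 1828 were higher and 1182 lower in the main fit, but 3046 and 2428 with only the libraries compared. With both libraries left out they were 3235 and 2680. The cause of these moves was not tested. Over the 45 single values no called value changed sign, and 6 of the 14 called ones were called in every alternative. The median over genes was -0.02 after TMM and 0.27 on log2(TPM + 0.5) between nontreated lines, and -0.03 and 0.34 between treated lines, where limma on median-centred values called 5. The log2 ratio of light chains to Slc3a2 in Q111-T vs. Q111-C was -0.65 with estimated counts in place of TPM.

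The replicate numbers are shared between groups. Deviations of same-numbered libraries had correlations between -0.416 and 0.303 (median -0.01), against -0.452 to 0.456 (median 0.05) for libraries of other numbers. With 3 libraries a group, some of them apart from the rest, this cannot settle whether the numbers mark a shared batch. With the replicate block the number called in Q111-T vs. Q111-C went from 2 to 1, as Slc6a9 was at an adjusted p of 0.0780, and the other counts stayed at 6, 5, 1 and 0. Depth limits Slc7a7, at 15 to 44 estimated counts a library, and Slc7a8 in STHdhQ7 cells.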
